A study of Mus musculus with 8 samples.

Results

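The neurotrophin system of the mouse hippocampus was read at 14 array probes, which were all the probes named Bdnf, Ntf3, Ntrk2, Ntrk3, Ngfr or Sort1 among the 41174 non-control probes of an Agilent single-color mouse array. Bdnf had 2 probes, Ntf3 1, Ntrk2 3, Ntrk3 2, Ngfr 2 and Sort1 4. Vgf, a secreted neuropeptide precursor that neurotrophins induce, was also sought and was not analysed here. Whole hippocampus came from 4 untreated male BTBR mice and 4 untreated male B6 (C57BL/6J) mice, 5 months old, with 1 mouse per array. BTBR T+ Itpr3tf/J is an inbred strain with autism-related behavior and no corpus callosum, and C57BL/6J is the wild type control strain. The strain background field of the labels names C57BL/6J for the BTBR mice too, although their titles and genotype field call them BTBR, which was used here. The comparison asked whether the level of these transcripts differed between the strains, at every probe of every gene.

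Neurotrophins are small secreted growth factors that are made as longer precursors and cut to their mature form. Mature BDNF, the product of Bdnf, binds the receptor tyrosine kinase TrkB (Ntrk2), and neurotrophin-3 (Ntf3) binds mainly TrkC (Ntrk3). The p75 receptor (Ngfr) binds all neurotrophins, and with sortilin (Sort1) it forms the receptor for the uncut precursors. In the hippocampus BDNF is known for its part in synaptic plasticity, and it is made by granule and pyramidal neurons.

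Values are log2 intensities after background subtraction and quantile normalization, and a difference of 1 on this scale is a 2-fold difference. All 14 probes were among the 27981 kept by the filter on dim signal. Levels of different probes cannot be set against each other on an array, so each probe was compared with itself between strains.

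The sequences below are those of the 5 probes that lie in protein-coding sequence, as printed on the array, 5′ to 3′ and in the sense of the transcript. They are shown because they are the stretches of transcript that the values were read from. Placement in coding or untranslated sequence, here and below, rests on the listed transcripts and the reading frames, and no mm9 annotation was used. All 5 are 60 bases long, and each reads in at least 1 frame without a stop codon. Positions are those of the mm9 build that the array files give.
Bdnf A_51_P261991, plus strand, chr2:109564203-109564262, in the last exon, which all Bdnf transcripts listed for it share: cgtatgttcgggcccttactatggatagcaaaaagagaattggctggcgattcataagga
Ntf3 A_52_P525161, minus strand, chr6:126051915-126051974: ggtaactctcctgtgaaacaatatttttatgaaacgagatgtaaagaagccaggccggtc
Ntrk3 A_52_P55706, minus strand, chr7:85595783-85595842: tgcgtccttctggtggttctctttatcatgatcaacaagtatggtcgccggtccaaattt
Ngfr A_51_P384968, minus strand, chr11:95435537-95435596: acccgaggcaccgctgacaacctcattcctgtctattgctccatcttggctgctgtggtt
Sort1 A_51_P517145, plus strand, across an intron from chr3:108157150-108159198: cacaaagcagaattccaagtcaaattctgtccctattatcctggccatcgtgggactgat
The other 9 probes lie in 3′ untranslated sequence or in transcripts that end there, and are given by position with their values.

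Fitted on strain alone, no probe of the 6 genes passed the test between BTBR and B6. Limma called 0 of the 14 at an adjusted p under 0.05, where it called 7.61% of the 27981 probes kept on the array (3.31% as higher and 4.3% as lower in BTBR). At an unadjusted p under 0.05 it listed 3 of the 14, both Bdnf probes and 1 of the 2 Ntrk3 probes, against 18.5% of all kept probes. All 3 had lower means in BTBR. With the slide as a block, 1 of the 14 passed, the coding Bdnf probe (adjusted p = 0.0347), where 8.33% of all kept probes passed. The rank product, the study's own test, called 1 of the 14, the coding Bdnf probe, as lower in BTBR, where it called 3.91% of all probes, 2.27% as lower and 1.64% as higher. The strains overlapped at all 14 probes, while 14.2% of all kept probes had no overlap.

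**Figure D1:**
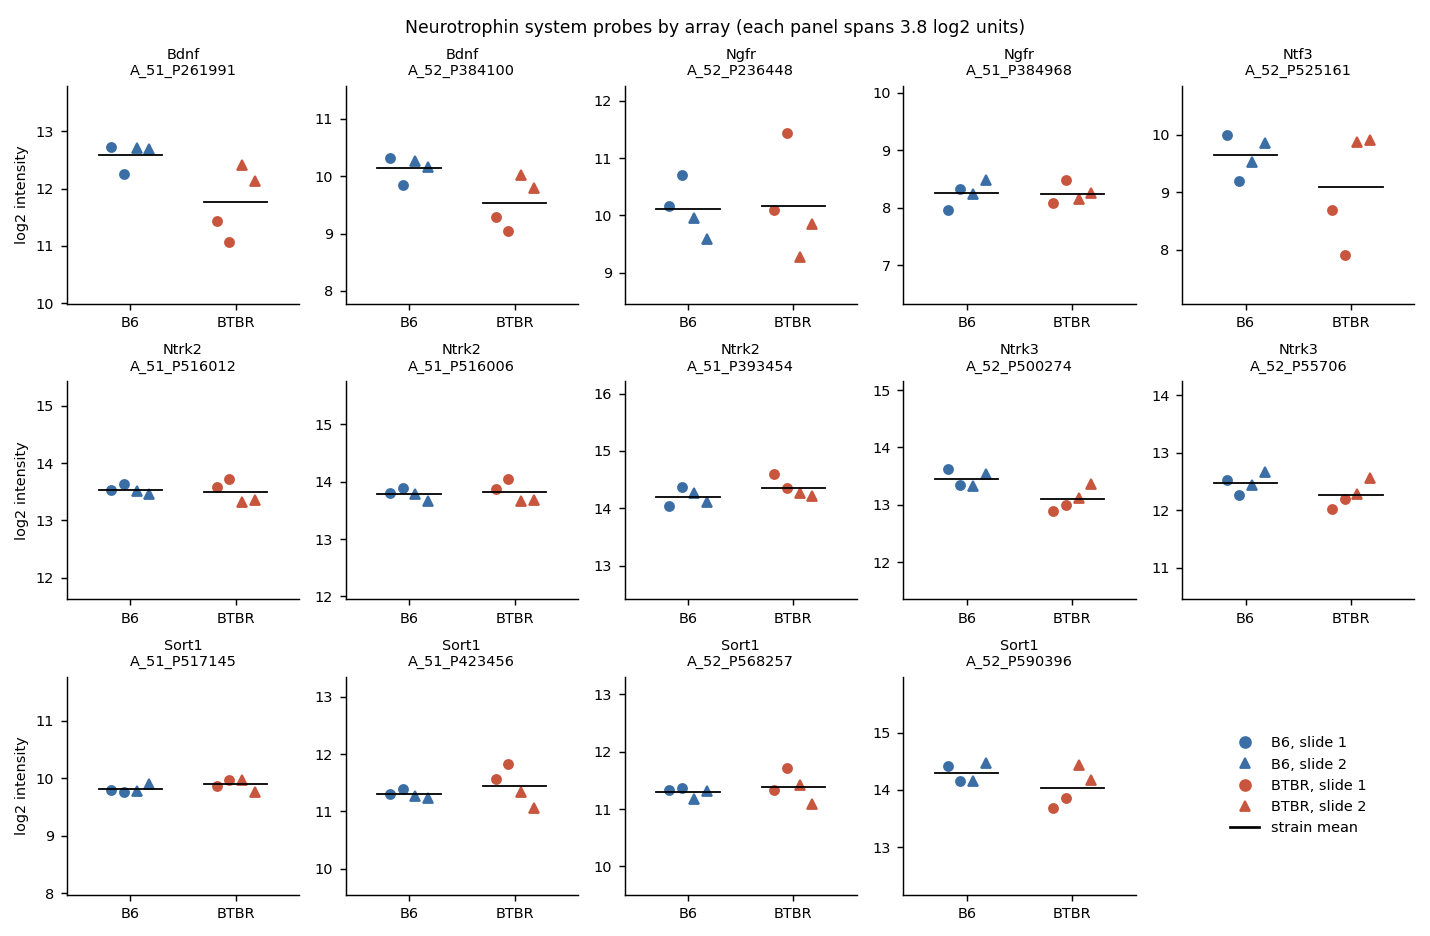
Log2 intensity (vertical axis) of each of the 14 probes on the 4 B6 and 4 BTBR arrays, with circles for slide 1, triangles for slide 2 and a line at each strain mean. The BTBR circles lie below every B6 array at both Bdnf probes and at Ntf3, and the BTBR triangles lie within or close to the B6 values.

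Arrays 1 and 2 of each strain were on slide 1, and arrays 3 and 4 of each strain were on slide 2. From 56.8% to 71.9% of the probes were well above background on an array, and no probe was saturated. Dentate granule cell, pyramidal cell and pan neuron markers were detected on the arrays, with 8 of 8, 10 of 12 and 10 of 10 list genes kept. Markers of neighboring brain regions were not equal among arrays. The 11 thalamus markers, all of them measured, had a summed intensity of 40351 to 44180 in B6, and of 183340, 56468, 42631 and 46177 in BTBR 1 to 4. The 8 striatum markers, also all measured, summed to 35794, 152166, 31359 and 40278 in B6 1 to 4 and to 80693, 359488, 33703 and 22698 in BTBR 1 to 4. The thalamus sum was thus highest on BTBR 1, and the striatum sum on BTBR 2, B6 2 and BTBR 1, all of them on slide 1. The 7 measured choroid plexus markers summed to 15817 to 39937 in B6, 78483 and 73177 in BTBR 1 and 2, and 22373 and 18421 in BTBR 3 and 4. The differences of the 14 probes and the pathway calls are therefore also given without BTBR 1 and BTBR 2, a choice made after the data were seen.

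Among the ligands, Bdnf had the lower mean in BTBR at both of its probes. The coding probe A_51_P261991 read 12.72, 12.25, 12.71 and 12.68 in B6 1 to 4, and 11.44, 11.06, 12.41 and 12.12 in BTBR 1 to 4. BTBR 1, 2 and 4 lay below every B6 array, and BTBR 3 lay between B6 2 and the other B6 arrays. The BTBR mean was 11.76 ± 0.62 (SD, n = 4) against 12.59 ± 0.23 (SD, n = 4), a difference of -0.83 (SE 0.28, 95% interval -1.46 to -0.21), or 1.78-fold lower, with an adjusted p of 0.127 by limma. An exact permutation test of the 8 arrays gave p = 0.0571 (two-sided), where 0.0286 is the smallest p that 4 against 4 arrays allow.

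The second Bdnf probe, A_52_P384100, lies in the distal 3′ untranslated region (chr2:109566470-109566529), which only the long form of the Bdnf transcript contains. It read 10.32, 9.85, 10.26 and 10.16 in B6 1 to 4, and 9.28, 9.04, 10.01 and 9.80 in BTBR 1 to 4. The order of the arrays was that of the coding probe, with r = 0.996 between the 2 probes over the 8 arrays, and again BTBR 1, 2 and 4 lay below every B6 array. The difference was -0.61 (SE 0.21, 95% interval -1.09 to -0.14), or 1.53-fold lower, with an adjusted p of 0.142.

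Both Bdnf differences were larger on slide 1 than on slide 2. Within slide 1 the coding probe differed by -1.23 (adjusted p = 0.0115 by limma) and the 3′ probe by -0.93 (adjusted p = 0.0207), so both passed there, where 8.65% of all probes did. On slide 2 the differences were -0.43 (adjusted p = 0.442) and -0.30 (adjusted p = 0.577), where 3.7% of all probes passed. The difference between slides itself did not pass for either probe (adjusted p = 0.474 and 0.49), and limma called 0 of the 27981 probes for it, with 2779 (9.93%) at an unadjusted p under 0.05. Without BTBR 3, both probes passed, at -1.05 (adjusted p = 0.0338) and -0.78 (adjusted p = 0.042). Without BTBR 2 they were -0.60 (adjusted p = 0.219) and -0.45 (adjusted p = 0.265), and without BTBR 1 -0.73 (adjusted p = 0.277) and -0.53 (adjusted p = 0.304). Without BTBR 1 and BTBR 2 the differences were -0.33 (adjusted p = 0.358) and -0.24 (adjusted p = 0.464). With B6 2 left out too, they were -0.44 (adjusted p = 0.0896) and -0.34 (adjusted p = 0.177). The 10 spots of the coding probe had an SD of 0.21 to 0.30 on an array.

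**Figure D2:**
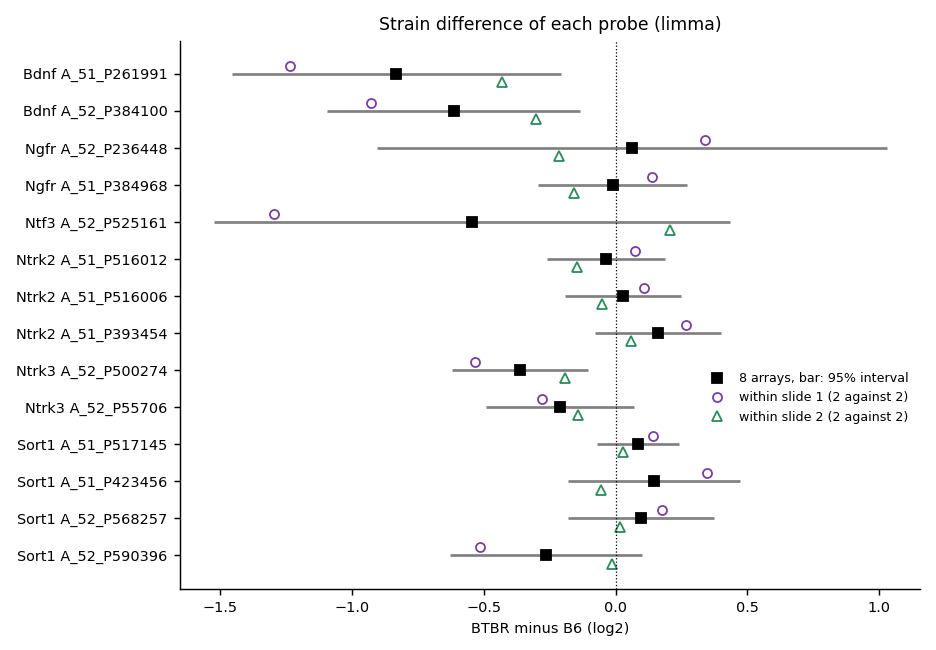
BTBR minus B6 difference in log2 intensity (horizontal axis) for each probe, with squares and 95% intervals from limma over the 8 arrays, open circles for slide 1 and open triangles for slide 2. The intervals of both Bdnf probes and of Ntrk3 A_52_P500274 lie below 0 before adjustment, and in these 3 the circle lies further from 0 than the triangle.

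Ntf3, the ligand of TrkC, is known in the adult hippocampus mainly from dentate granule cells. Its single probe read 10.004, 9.19, 9.53 and 9.86 in B6 1 to 4 and 8.69, 7.91, 9.88 and 9.92 in BTBR 1 to 4. BTBR 1 and 2 were below every B6 array, and BTBR 3 and 4 were level with the highest B6 arrays. On BTBR 2 the signal was not well above background. The difference was -0.54 (SE 0.43, 95% interval -1.52 to 0.44, adjusted p = 0.584), within the spread of the BTBR arrays (SD 0.98, n = 4). It was -1.08 (adjusted p = 0.566) with the processed signal, and from -0.82 (without BTBR 4) to -0.15 (without BTBR 2) with 1 array left out. Within slide 1 it was -1.30 (adjusted p = 0.0526), and within slide 2 it was 0.21 in the other direction (adjusted p = 0.895). Without BTBR 1 and BTBR 2 it was 0.25 (adjusted p = 0.631).

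Ntf5 encodes the ligand neurotrophin-4. Its probe read from 8.12 to 8.55 in B6 and from 8.43 to 8.94 in BTBR, a difference of 0.35 (SE 0.14, adjusted p = 0.235). The BTBR values were higher on the slide 1 arrays (8.92 and 8.94) than on the slide 2 arrays (8.49 and 8.43).

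Ntrk2, the BDNF receptor TrkB, is made as a full-length kinase and as a truncated form without the kinase domain, which astrocytes make in large amounts. The probe A_51_P393454 (chr13:59230936-59230995) is listed for the full-length transcript NM_001025074. It read 14.04, 14.37, 14.26 and 14.11 in B6 1 to 4 and 14.59, 14.35, 14.26 and 14.22 in BTBR 1 to 4. BTBR 1 was the highest of the 8 arrays and the other BTBR arrays lay among the B6 values. The difference was 0.16 (SE 0.11, 95% interval -0.076 to 0.40, adjusted p = 0.482). It was 0.083 without BTBR 1 (adjusted p = 0.765), and 0.047 without BTBR 1 and BTBR 2 (adjusted p = 0.886).

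The probe A_51_P516012 (chr13:59033682-59033741) is listed for the truncated transcript NM_008745, and A_51_P516006 (chr13:59033742-59033800) follows it directly. The first read from 13.46 to 13.64 in B6 and from 13.33 to 13.73 in BTBR, a difference of -0.036 (SE 0.098, 95% interval -0.26 to 0.19, adjusted p = 0.893). The second read from 13.67 to 13.89 in B6 and from 13.66 to 14.04 in BTBR, a difference of 0.028 (SE 0.098, 95% interval -0.19 to 0.25, adjusted p = 0.918). At both, BTBR 2 was the highest array and BTBR 3 the lowest. Without BTBR 1 and BTBR 2 they differed by -0.19 (adjusted p = 0.265) and -0.12 (adjusted p = 0.559).

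Ntrk3, the neurotrophin-3 receptor TrkC, also has a kinase form and shorter forms. The probe A_52_P500274 (chr7:85445908-85445967, 3′ untranslated) is listed for NM_182809 alone. It read 13.62, 13.34, 13.34 and 13.54 in B6 1 to 4 and 12.89, 13.001, 13.12 and 13.36 in BTBR 1 to 4. BTBR 1, 2 and 3 were below every B6 array, and BTBR 4 lay just above the lowest of them. The difference was -0.36 (SE 0.11, 95% interval -0.62 to -0.11), or 1.29-fold lower, with the smallest adjusted p of the 14 probes, 0.105, and an exact permutation p of 0.0857 (two-sided). It was -0.53 within slide 1 (adjusted p = 0.0584), -0.19 within slide 2 (adjusted p = 0.691) and -0.21 without BTBR 1 and BTBR 2 (adjusted p = 0.416). Without BTBR 4 it passed, at -0.45 (adjusted p = 0.0333).

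The coding Ntrk3 probe A_52_P55706, listed for NM_182809 and NM_008746, read 12.52, 12.27, 12.45 and 12.67 in B6 1 to 4 and 12.03, 12.20, 12.28 and 12.55 in BTBR 1 to 4. BTBR 1 and 2 were below every B6 array. The difference was -0.21 (SE 0.12, 95% interval -0.49 to 0.070, adjusted p = 0.429), and -0.060 without BTBR 1 and BTBR 2 (adjusted p = 0.881).

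Ngfr, the p75 receptor, is known from the cholinergic neurons of the basal forebrain rather than from hippocampal neurons. Its probe A_52_P236448 (chr11:95430211-95430270) read 10.16, 10.71, 9.95 and 9.60 in B6 1 to 4 and 10.10, 11.44, 9.28 and 9.84 in BTBR 1 to 4. Array 2 was the highest in each strain, and these are the same 2 arrays on which the striatum list had its highest sums. The strains differed by 0.063 (SE 0.43, 95% interval -0.90 to 1.03, adjusted p = 0.96), and the spread among mice (SD 0.46 in B6 and 0.92 in BTBR, n = 4 each) was far larger than that. The 10 spots of this probe had an SD of 0.067 to 0.14 on an array. Without BTBR 1 and BTBR 2 the difference was -0.54 (adjusted p = 0.426). The coding Ngfr probe A_51_P384968 was dim and read from 7.97 to 8.48 in B6 and from 8.07 to 8.48 in BTBR, a difference of -0.011 (SE 0.12, adjusted p = 0.977). On B6 1 this probe was not well above background, and without BTBR 1 and BTBR 2 it differed by -0.049 (adjusted p = 0.912).

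Sort1, the sorting receptor that binds precursor neurotrophins, had 4 probes along 1 transcript, NM_019972. In order along the transcript, A_51_P517145 (coding), A_51_P423456 (chr3:108160783-108160842) and A_52_P568257 (chr3:108160843-108160902) differed by 0.084 (SE 0.069, adjusted p = 0.597), 0.15 (SE 0.14, adjusted p = 0.675) and 0.096 (SE 0.12, adjusted p = 0.752). The last, A_52_P590396 (chr3:108164349-108164408), in the distal 3′ untranslated region, differed by -0.26 (SE 0.16, 95% interval -0.63 to 0.10, adjusted p = 0.45). It read 14.42, 14.15, 14.16 and 14.47 in B6 1 to 4 and 13.68, 13.86, 14.43 and 14.17 in BTBR 1 to 4. BTBR 1 and 2 were below every B6 array there, while at A_51_P423456 the same arrays (11.56 and 11.83) were above every B6 array (11.24 to 11.39). Without BTBR 1 and BTBR 2 the 4 differences, in the same order, were 0.057, -0.10, -0.037 and 0.00022, with adjusted p of 0.687 or more. With 1 array left out they ran from 0.059 to 0.13, 0.019 to 0.27, -0.013 to 0.19 and -0.40 to -0.14.

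Because several genes had more than 1 probe, the difference between 2 probes of a gene was compared between strains on each array. Limma called 0 of the 12 pairs from these genes, where it called 8.69% of 13526 pairs on the whole array. At an unadjusted p under 0.05 it listed 2 of the 12, the Bdnf pair and the Sort1 pair of A_51_P517145 and A_52_P590396, against 17.6% of all pairs. The strains did not overlap for 3 pairs, against 13.4% of all pairs, and at these 3 the exact permutation test gave its smallest p of 0.0286 (two-sided).

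The Bdnf pair, coding minus 3′ probe, was 2.40, 2.40, 2.45 and 2.52 in B6 1 to 4 and 2.16, 2.03, 2.39 and 2.32 in BTBR 1 to 4. Every BTBR array lay below every B6 array, by a mean of -0.22 (SE 0.092, adjusted p = 0.247). The 2 slides gave -0.31 and -0.13 for it, slide 1 first. The Ntrk3 pair, NM_182809 probe minus coding probe, was 1.10, 1.08, 0.89 and 0.87 in B6 1 to 4 and between 0.80 and 0.86 in BTBR, a difference of -0.15 (SE 0.078, adjusted p = 0.373) that was -0.25 on slide 1 and -0.051 on slide 2.

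The third pair without overlap was that of the 2 adjoining Ntrk2 probes, which differed between strains by 0.064 (SE 0.063, adjusted p = 0.718). For full-length minus truncated Ntrk2, with A_51_P516012 for the truncated form, the values were 0.51, 0.73, 0.74 and 0.65 in B6 1 to 4 and 1.01, 0.62, 0.94 and 0.86 in BTBR 1 to 4. BTBR 1, 3 and 4 lay above every B6 array and BTBR 2 lay among them, a difference of 0.20 (SE 0.099, adjusted p = 0.353) that was 0.19 on slide 1 and 0.20 on slide 2.

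The distal Sort1 probe was set against the other 3 within each slide. Within slide 1, all 3 pairs with A_52_P590396 passed, at 0.86, 0.66 and 0.69 (adjusted p = 0.0167, 0.0186 and 0.0247 by limma) for A_51_P423456, A_51_P517145 and A_52_P568257, where 6.75% of all pairs did. On slide 2 the same pairs differed by -0.044, 0.039 and 0.029. These are ratios within an array, and they show unequal change of the probes without saying which one changed.

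**Figure D3:**
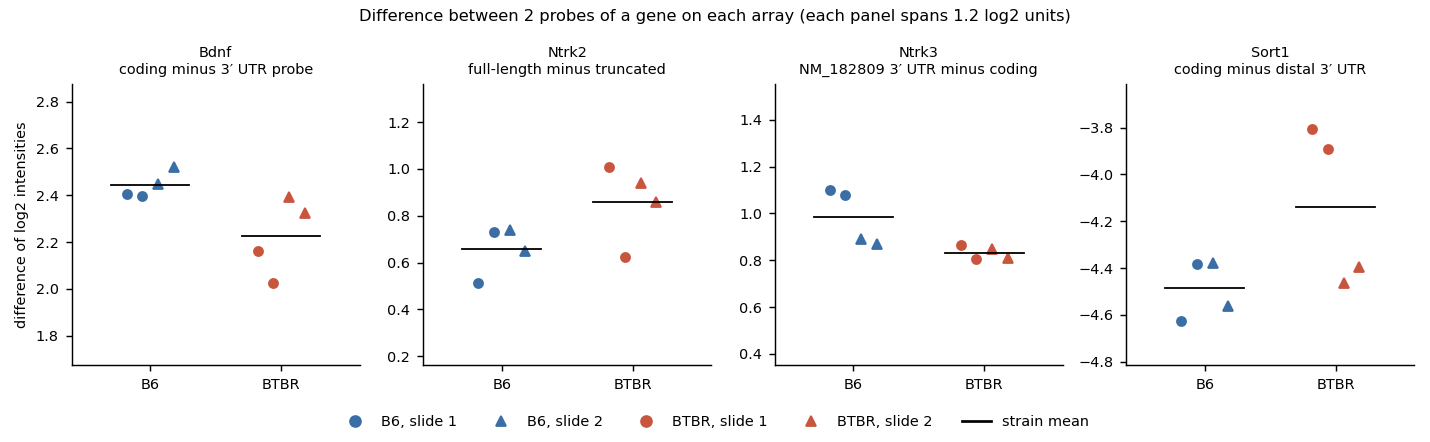
Difference of log2 intensity between 2 probes of a gene on each array (vertical axis) for Bdnf, Ntrk2, Ntrk3 and Sort1, with circles for slide 1, triangles for slide 2 and a line at each strain mean. The strains do not overlap for Bdnf and Ntrk3, and for Sort1 the 2 BTBR circles stand above the other 6 arrays.

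Correlations between the 14 probes over the 8 arrays ran from -0.93 to 0.996 in 91 pairs, and 33 of the 91 lay between -0.5 and 0.5. Bdnf (coding probe) went with Ntf3 at r = 0.90, and r was 0.96 after the strain means were taken off. Ngfr A_52_P236448 went against Ntf3 at r = -0.82 and with truncated Ntrk2 at r = 0.91. Full-length Ntrk2 went against Ntrk3 A_52_P500274 at r = -0.88. The coding Ngfr probe had r = -0.37 with Ntf3 and 0.28 with truncated Ntrk2, and Sort1 A_51_P517145 had r = -0.084 with Sort1 A_52_P590396. These values describe 8 points that share 2 slides and 2 strains.

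The marker sums also differed among arrays. The 8 dentate granule cell markers summed to 86363, 51904, 60573 and 68307 in B6 1 to 4 and to 47080, 41214, 55902 and 58366 in BTBR 1 to 4, lowest on BTBR 2 and BTBR 1. All 8 were lower on average in BTBR, with a median difference of -0.60 beside 0.010 for all named genes, and limma called 1 of them. The logarithm of this sum had r = 0.86 with Bdnf, 0.84 with Ntf3 and 0.88 with Ntrk3 A_52_P500274 over the 8 arrays. The striatum sum had r = 0.89 with Ngfr, -0.90 with Ntf3 and -0.74 with Bdnf, and the interneuron sum had r = 0.92 with Ngfr, -0.85 with Ntf3 and -0.76 with Bdnf. The pan neuron sum had r = 0.74 with Bdnf. Of its 10 genes, 3 were called lower, where 5.8% of all named genes were. The median difference of this list was 0.016, and 6 of the 10 were higher on average in BTBR at their brightest probe. Nefl was called at 2 of 2 probes, Syt1 at 1 of 6 and Map2 at 1 of 3, and the brightest Syt1 probe differed by 0.035. The oligodendrocyte sum was 523784 and 608270 on BTBR 1 and BTBR 2 and 323625 to 438508 on the others, with r = -0.83 with Ntf3, -0.68 with Bdnf and 0.63 with Ngfr, and all 10 of its genes were higher on average in BTBR. Of the 10 measured pyramidal cell genes, 6 were lower on average in BTBR (median -0.39, 1 called as lower). Their sum was 266458 to 293047 in B6 and 250925 to 307737 in BTBR, and its genes did not move as one. On BTBR 1 and BTBR 2, Pcp4 read 17.21 and 17.47, above the other arrays (15.53 to 16.47), while Fibcd1 read 9.18 and 8.87, below them (10.63 to 11.78). The thalamus sum had r = 0.76 with full-length Ntrk2 and -0.77 with Sort1 A_52_P590396. The choroid plexus sum had r = -0.91 with Ntf3 and with Sort1 A_52_P590396, 0.83 with full-length Ntrk2, -0.79 with Ntrk3 A_52_P500274 and -0.78 with Bdnf. All 7 measured choroid plexus markers were higher on average in BTBR, and limma called 0 of them, with 1 at an unadjusted p under 0.05. All 11 thalamus markers and 6 of 8 striatum markers were higher on average in BTBR, and limma called 0 of either list, with 1 thalamus and 0 striatum genes at an unadjusted p under 0.05. The part of these regions in the differences of Bdnf, Ntf3, Ntrk3 and Ngfr was not tested, and in whole tissue, fewer cells of a type and less RNA per cell cannot be told apart.

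**Figure D4:**
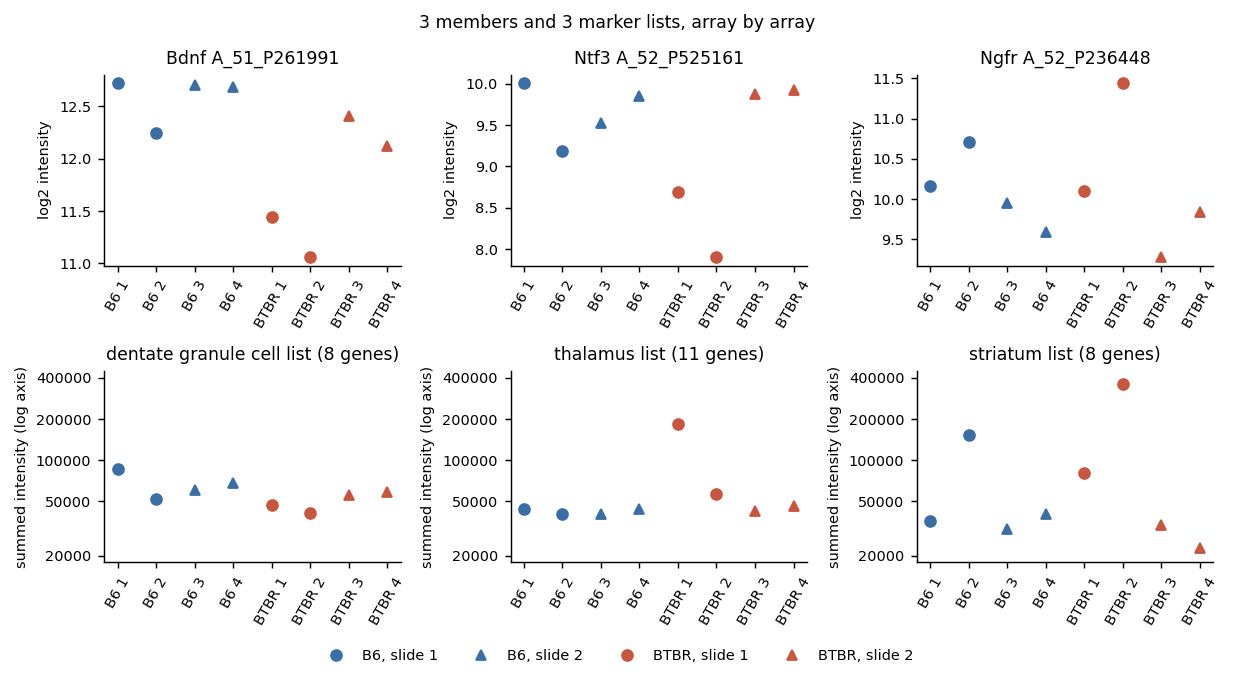
Upper row, log2 intensity of Bdnf, Ntf3 and Ngfr on each array. Lower row, summed intensity of the dentate granule cell, thalamus and striatum lists on a log axis, with circles for slide 1 and triangles for slide 2. Bdnf and Ntf3 are lowest on BTBR 1 and BTBR 2, where the dentate sum is lowest, and Ngfr is highest on BTBR 2 and B6 2, where the striatum sum is highest.

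The genes whose pattern over the 8 arrays was most like that of each member, among 21533 probes with a gene name, were described by Pearson's r. For Bdnf they were Cpeb1 (0.987) and Hsd11b1 (0.985), for Ntf3 Bhlhe22 (0.995) and Hspa2 (0.986), and for Ngfr Fgf14 (0.994) and Phactr1 (0.976). For full-length Ntrk2 they were Oplah (0.987) and Ccdc124 (0.982), for Ntrk3 Rpl22 (0.982) and Slc25a26 (0.979), and for the distal Sort1 probe Tmem9b (0.999) and Garem (0.987). None of these 12 genes was called between the strains at the probe compared, with adjusted p from 0.1 to 0.97. They were picked for likeness to probes that were not called themselves, so this follows largely from the choice. The highest r among 21533 probes over 8 arrays is also high by selection.

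Both Bdnf probes lie in the last exon, downstream of all Bdnf starts, so they do not separate the promoters from which the gene is read. RefSeq lists 7 Bdnf starts on GRCm38.p6, each with a window of 300 bases that lies mostly before the start. A cAMP response element, the site through which CREB acts, is written TGACGTCA in full, and its CGTCA part was searched for on both strands. The full letters were in 0 of the 7 windows and in 1.79% of 32851 mouse windows of this length. CGTCA was in 1 of the 7, against 20.8% of all windows, and in 0 of the 2 Ntf3, 1 Ngfr and 1 Ntrk2 windows. The 1 Bdnf window with the letters is printed with them in capitals, 35 bases before the start, because Bdnf had the smallest p of the ligands.
Bdnf start at chr2:109692186-109692485, plus strand: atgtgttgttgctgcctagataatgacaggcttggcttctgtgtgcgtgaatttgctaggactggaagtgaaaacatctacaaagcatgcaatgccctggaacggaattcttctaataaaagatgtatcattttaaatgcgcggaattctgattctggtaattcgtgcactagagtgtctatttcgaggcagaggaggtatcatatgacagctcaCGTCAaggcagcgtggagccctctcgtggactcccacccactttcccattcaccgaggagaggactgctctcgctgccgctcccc
A match of letters is a description of the window and not a binding site.

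The wider pathway was read from 11 lists of genes, in which 16 of 141 measured genes outside the 6 (11.3%) passed the test at 1 probe or more. This share was close to that of the whole array, where 10.1% of 18219 named genes did, 4.3% with a higher and 5.8% with a lower probe. In the sortilin family, 2 of the 4 genes beside Sort1 passed. Sorcs2, a receptor that pairs with p75 for precursor BDNF, read 10.79, 10.96, 10.92 and 10.84 in B6 1 to 4 and 12.22, 12.01, 11.73 and 11.85 in BTBR 1 to 4. It rose by 1.07 (SE 0.11, adjusted p = 2.7e-04 by limma) with no overlap, and by 0.91 (adjusted p = 9.3e-04) without BTBR 1 and BTBR 2. The other Sorcs2 probe, listed for AK047881 and dimmer, differed by -0.045 (adjusted p = 0.885).

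Sorl1, which encodes the sorting receptor SorLA, read 12.56, 12.29, 12.73 and 12.61 in B6 1 to 4 and 11.19, 11.41, 12.13 and 11.71 in BTBR 1 to 4. It fell by 0.94 (SE 0.19, adjusted p = 0.016) with no overlap between strains. The call was lost without BTBR 1 and BTBR 2, at -0.63 (adjusted p = 0.0662). Sorcs1 differed by 0.29 and 0.057 at its 2 probes (adjusted p = 0.62 and 0.941) and Sorcs3 by -0.11 and -0.29 (adjusted p = 0.721 and 0.247).

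Of 12 measured genes for the processing of precursor neurotrophins, 1 passed. Pcsk5, a proprotein convertase, fell by 0.45 (SE 0.053, adjusted p = 8.5e-04) at 1 of 2 probes, and its brighter probe differed by -0.61 (adjusted p = 0.202). The called probe was dim, at 8.09 to 8.14 in B6 and 7.64 to 7.71 in BTBR, where Ntf3 at 7.91 was not well above background. Furin, another convertase, differed by -0.018 (adjusted p = 0.931). Of 24 Trk adaptors and effectors, 1 passed. Crk, an adaptor between Trk receptors and Rap1, rose by 0.57 (SE 0.086, adjusted p = 0.0033) at 1 of 3 probes, and its brightest probe differed by -0.22 (adjusted p = 0.178), so the direction was not shared by the probes.

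Of 19 partners of p75, 2 rose and 1 fell. Adam17, the protease that sheds the p75 ectodomain, rose by 0.38 (SE 0.071, adjusted p = 0.0116) and passed at both of its probes. Magi1, a scaffold protein of cell junctions, rose by 0.95 (SE 0.16, adjusted p = 0.00605) at 1 of 3 probes and differed by -0.035 at its brightest (adjusted p = 0.948). Bex1, which binds the p75 cytoplasmic domain, fell by 0.52 (SE 0.11, adjusted p = 0.0251).

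Of 23 measured regulators of Bdnf transcription, 1 passed: Nfkb1, a subunit of NF-kappaB, fell by 0.32 (SE 0.072, adjusted p = 0.0258) at 1 of 3 probes, with -0.067 at its brightest. The called probe was dim too, at 7.91 to 8.09 in B6 and 7.59 to 7.81 in BTBR. Of 20 immediate early genes, 1 passed: Nptx2, a secreted pentraxin that gathers AMPA receptors, rose by 0.92 (SE 0.19, adjusted p = 0.0191), and by 0.65 (adjusted p = 0.0796) without BTBR 1 and BTBR 2. Arc, Fos and Egr1 differed by 0.40, 0.16 and 0.32 and did not pass (adjusted p = 0.675, 0.922 and 0.704). The medians of the 2 lists were 0.0078 and 0.14, beside 0.010 for all named genes.

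Among 17 granin and neuropeptide genes, 1 rose and 2 fell. Cort, which encodes the interneuron peptide cortistatin, read 11.73, 12.02, 12.05 and 11.80 in B6 1 to 4 and 10.04, 9.51, 9.36 and 9.82 in BTBR 1 to 4, and fell by 2.22 (SE 0.15, adjusted p = 2.4e-05). Scg5, the chaperone 7B2 of proprotein convertase 2, rose by 1.47 (SE 0.096, adjusted p = 1.7e-05). Scg3, a granin that sorts cargo into dense-core vesicles, fell by 0.26 (SE 0.063, adjusted p = 0.0364). The calls of Cort and Scg5 stood without BTBR 1 and BTBR 2 (-2.31 and 1.37, adjusted p = 1.9e-04 and 4.5e-04), and that of Scg3 did not (-0.24, adjusted p = 0.153).

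Of 15 other neurotrophic factors and receptors, 2 rose and 2 fell. Manf, an endoplasmic reticulum stress protein with trophic activity, rose by 0.50 (SE 0.083, adjusted p = 0.00568). Nrtn, the GDNF family ligand neurturin, rose by 0.83 (SE 0.15, adjusted p = 0.00859), and Nenf, the secreted protein neudesin, fell by 0.30 (SE 0.060, adjusted p = 0.0149). The fourth was Gfra1, a GDNF receptor, which fell by 0.51 (SE 0.13, adjusted p = 0.0462). Of the 6 Slitrk genes 0 passed by limma, and 0 were under an unadjusted p of 0.05. Without BTBR 1 and BTBR 2, 9 of the 16 called genes still passed and all 16 kept their direction at the probe named. In the same fit the calls over all probes went from 7.61% to 5.54%. The 9 were Sorcs2, Pcsk5 (at its dim probe), Crk, Magi1, Bex1, Cort, Scg5, Nrtn and Gfra1. Calls were lost for Sorl1, Adam17, Nfkb1, Nptx2, Scg3, Manf and Nenf, with adjusted p from 0.0507 (Manf) to 0.166 (Nfkb1). Several of these differences were nearly as large as before, at -0.31 for Nenf, 0.47 for Manf, 0.33 for Adam17 and -0.25 for Nfkb1.

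**Figure D5:**
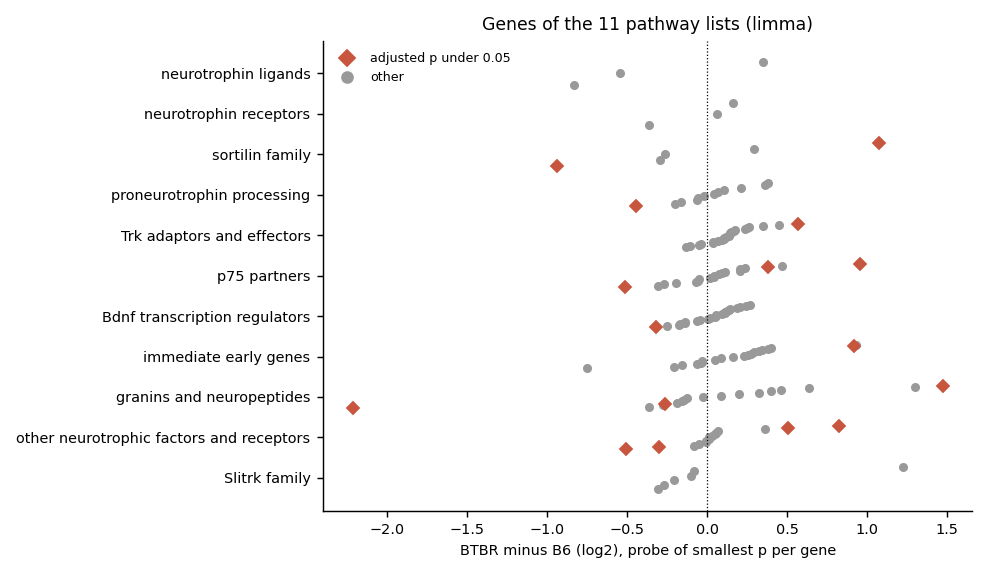
BTBR minus B6 difference in log2 intensity (horizontal axis) at the probe of smallest p for each measured gene of the 11 pathway lists, with diamonds for genes called by limma and gray points for the others. The sortilin family has 2 diamonds of opposite sign, and the ligand and receptor lists have none.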

How the data were processed

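Labels gave the strain and the replicate number of each array. The authors deposited the intensity values of each spot, for which the headers name version 10.7.3.1 of Agilent Feature Extraction and the submitters' processing notes 9.1, and a matrix of log2 values. Per the methods, the authors removed low-quality probes with Agi4x44PreProcess, quantile normalized the signals and took the median of replicate spots.

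Here the local background median was subtracted from the mean intensity, values under 0.5 were set to 0.5, 50 was added, and quantile normalization followed on the log2 scale. Spots with an outlier flag were left out, which removed 154 probes, and the median stood for the spots of 1 probe. Probes well above background on at least 75% of the arrays of a strain were kept (27981 of 41174). The number of arrays, 4 per strain, limits the precision. Limma 3.58.1 in R 4.3.3 fitted strain alone over all kept probes, and the difference of 2 probes of a gene over all such pairs. Benjamini-Hochberg adjusted p under 0.05 was called. The rank product used 100 permutations within arrays and a pfp (percentage of false prediction) of 0.05 or less. Python 3.11.15, NumPy 2.4.6, SciPy 1.17.1, pandas 2.3.3 and matplotlib 3.10.9 were used for the rest. The fits were tested on simulated data.

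Members and lists were chosen with earlier results of these data known. Named genes were all member probes, all measured genes of the ligand, receptor and sortilin lists (some items are not reported here), at most the 3 called genes of smallest p in each other list, and the 2 genes most like each member. Furin, Gfra1, Arc, Fos, Egr1, Pcp4, Fibcd1, Nefl, Syt1 and Map2 were named after their values were seen. A list was described by its counts and by the median over its genes' brightest probes. Marker sums added the intensities of each gene's brightest probe. Other alternatives were normexp correction, the processed signal scaled to the 75th percentile, the deposited matrix, median centring, other filters, each array left out, and replicate or slide as a block. Each array is 1 mouse, and strain variants under a probe were not tested.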

Additional observations from a re-analysis of the deposited data

Results flagged for a closer look

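In groups of 4 arrays, 5 of 120 strain groups had 1 array far from the other 3, where chance gives about 1 in 20. The coding Bdnf probe read 12.25 on B6 2, below the other B6 arrays. The dim Sorcs2 probe A_52_P279845 read 8.47 on B6 1, above the other 3. Full-length minus adjoining Ntrk2 probe (A_51_P393454 minus A_51_P516006) was 0.24 on B6 1, below the other B6 arrays. The thalamus marker sum was 183340 on BTBR 1, and the striatum marker sum was 152166 on B6 2, each above the other arrays of its strain.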

How the results depend on the processing

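Of the 14 probes, limma called 1 with the slide as a block (8.33% of all probes) and 2 within slide 1 (8.65%), the rank product called 1 (3.91%), and leaving out 1 array gave 0 to 2 (2 without BTBR 3, where 7.8% of all probes were called, and 1 without BTBR 4, where 6.98% were). The other settings run called 0. Of the pathway genes, 16 were called in the report, where 7.61% of all probes were. Within slide 2, 7 were called (3.7% of all probes), and without BTBR 1 and 2, 9 were (5.54%). Without these and B6 2, 9 were called (4.23%). They held 8 of the 16, with Sorl1 called and Nrtn and Gfra1 lost. With 1 array left out, 10 to 18 were called: 10 without B6 1 (5.9%), 10 without B6 2 (5.52%) and 18 without BTBR 3 (7.8%). With only probes well above background on all arrays, 14 were called. Of the 12 probe pairs, 3 were called within slide 1. Both settings that left out several arrays were chosen after seeing the data. Both Bdnf probes, both Ntrk3 probes, full-length Ntrk2 and Sort1 A_51_P517145 kept their sign in all 22 alternatives. In those that changed only the filter, the block or the variance options of limma, the difference itself was fixed, so its sign could not turn. The rest reused the same mice. With several arrays left out (first without BTBR 1 and 2, then also without B6 2), the sign turned for Ngfr A_52_P236448 (-0.54, -0.34), Ntf3 (0.25, 0.10), Ntrk2 A_51_P516006 (-0.12, -0.080), Sort1 A_51_P423456 (-0.10, -0.070) and A_52_P568257 (-0.037, -0.013), and in the first for Sort1 A_52_P590396 (0.00022). Within slide 2 it turned for Ngfr A_52_P236448 (-0.21), Ntf3 (0.21), Ntrk2 A_51_P516006 (-0.053) and Sort1 A_51_P423456 (-0.057), and within slide 1 for Ngfr A_51_P384968 (0.14) and Ntrk2 A_51_P516012 (0.074). Ntrk2 A_51_P516012 was 0.024 in the deposited matrix, and Ntrk2 A_51_P516006 was -0.051 after median centring. With 1 array left out, the sign turned for Ngfr A_51_P384968 (-0.11 to 0.064), Ngfr A_52_P236448 (-0.36 to 0.36), Ntrk2 A_51_P516006 (-0.049 to 0.080), Ntrk2 A_51_P516012 (-0.11 to 0.022) and Sort1 A_52_P568257 (-0.013 to 0.19). The cause was not tested.

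The replicate number as a block called 0 probes, 14 pathway genes and 0 pairs, and 1650 of all probes against 2129 without it. Under this block the 2 Bdnf probes had adjusted p = 0.059 and 0.0772 by limma. Same-numbered mice had correlations of -0.14, 0.51, -0.10 and 0.39 in their deviations from the strain means. The highest r of the same B6 array with another BTBR array was 0.34, 0.37, 0.16 and 0.24. Numbers 2 and 4 thus lay above theirs, and 1 and 3 did not. Same-numbered mice also shared a slide, and whether the numbers pair the mice was not tested. With 4 mice per strain, only differences beyond the intervals given could be seen, and dim probes (Ntf3, Ngfr A_51_P384968) were not well above background on every array.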
